A study of Arabidopsis thaliana with 36 samples.

Results

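Untreated rosettes of the accession N14 were compared with untreated rosettes of the accession Col-0 at 35 days of growth, in 3 libraries of each. These 6 libraries were taken, by their labelled accession and condition, from a series of 36 that covers both accessions in 6 conditions of cold and recovery. N14 is labelled as cold tolerant and Col-0 as intermediate in freezing tolerance, and no mutation or transgene is named for either. Both groups grew under short days for 3 weeks and then long days of 16 h for 2 weeks, were never placed in the cold chamber, and are labelled as developmental controls. Growth was at 20 °C by day and 16 °C by night under 200 uE of light. The labels give 4 rosettes for both groups, and whether that is per pool or per replicate sample could not be settled. Each library came from RNA of 5 replicate samples that had been pooled within 1 of 3 independent experiments, so a library is called a pool here. The tests therefore measure the spread between pools of different experiments and not between plants. In such bulk samples fewer cells of a type and less RNA per cell cannot be told apart.

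Accessions of Arabidopsis differ in when they flower and in the chemicals they make against insects and pathogens. Flowering is held back by FLC, a MADS-box repressor that keeps the integrators FT and SOC1 low until a long cold season has silenced it, and meristem identity genes such as AP1 come on once those integrators act. Glucosinolates are sulphur compounds made from amino acids, and myrosinase enzymes with specifier proteins break them down when tissue is wounded, so that the products depend on which specifier an accession carries. Intracellular receptors with nucleotide-binding and leucine-rich repeat domains, called NLRs, recognise pathogens, and their genes are known to vary widely between accessions.

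The accessions differed in each of these areas. FLC was 5.77 ± 0.29 higher in N14 on the log2 scale, the integrators and floral organ genes were lower, the glucosinolate specifier ESP was 6.25 ± 0.35 higher and its modifier ESM1 differed by -4.50 ± 0.24, and the receptor genes RLM3, CSA1 and WRR4 were lower. All differences are N14 minus Col-0, as log2 fold change ± SE. Of 20263 genes tested, 2837 were called at an adjusted p under 0.05, which is 14.0%, with 1539 higher in N14 (7.60%) and 1298 lower (6.41%). By at least 2-fold, 837 were higher (4.13%) and 908 lower (4.48%). The 3 values of each accession did not overlap in 21.3% of all genes tested and in 2468 of the calls. The median difference over all genes tested was 0.06.

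Total counts ran from 19969765 to 25323473 in the N14 pools and from 26103647 to 31046237 in the Col-0 pools. In log2 CPM, counts scaled to library size, the first principal component set the accessions apart with 53.5% of the variance, and the second, with 24.8%, ordered the experiments alike in both accessions. The summed level of the 22 tested genes of light harvesting and the Rubisco small subunit, which mark green leaf, was 202700, 247200 and 192400 CPM in N14 and 189800, 226600 and 183300 CPM in Col-0. These groups overlapped. The N14 pool of experiment 1 stood apart in heat shock and some other genes, and both pools of experiment 3 in genes that were low, as described further on. Values without a pool are given mainly for genes whose call depended on it, and those of some uncalled genes come at the end.

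FLC [AT5G10140] had 184, 204.5 and 151 CPM in the N14 pools, against 2.13, 4.81 and 3.02 CPM in the Col-0 pools. Every N14 pool was far above every Col-0 pool. The difference of 5.77 had an adjusted p of 4.2e-15 in edgeR's quasi-likelihood test, and it lay between 5.72 and 5.86 in the other 6 count tables. Relatives that were called went the other way. MAF4 [AT5G65070], a floral repressor of the same clade, differed by -3.27 ± 0.55, at 0.325, 0.415 and 0 CPM in N14 and 2.00, 3.18 and 1.73 CPM in Col-0. MAF5 [AT5G65080] differed by -1.33 ± 0.29. MAF1 [AT1G77080], MAF2 [AT5G65050], MAF3 [AT5G65060] and SVP [AT2G22540], which also repress flowering, were not called, with differences of -0.12, 0.32, 0.49 and 0.01. Of the 9 repressors tested, 1 was higher and 2 lower, beside 7.60% and 6.41% of all genes, with a median of 0.01.

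FRI [AT4G00650], the activator of FLC whose loss is known to make accessions flower early, differed by 0.10 ± 0.15 (adjusted p = 0.77). Of 15 regulators tested, VRN1 [AT3G18990] (0.42 ± 0.13, adjusted p = 0.030) and VRN2 [AT4G16845] (0.39 ± 0.11, adjusted p = 0.017) were higher in N14 and none was lower, which is 13.3% beside 14.0% of all genes. Both act in the stable silencing of FLC after cold. VRN1 was not called without the N14 pool of experiment 1 (0.34, adjusted p = 0.15) or 2 (0.36) or the Col-0 pool of experiment 2 (0.42) or 3 (0.35), and VRN2 was not called without the N14 pool of experiment 3 (0.35) or the Col-0 pool of experiment 1 (0.37). VIN3 [AT5G57380], which long cold induces, had 1, 0 and 0 counts in N14 and 0, 0 and 0 counts in Col-0, so no fold is given.

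Of 14 floral integrators and meristem identity genes tested, 9 were lower in N14 and none was higher, beside 6.41% and 7.60% of all genes. The median was -1.8, also with the 3 genes at 0 in N14 set to their bound. FT [AT1G65480], the leaf-made signal that starts flowering, had 0, 0 and 0 counts in N14 and 165, 147 and 79 counts in Col-0, or 5.49, 6.15 and 3.19 CPM. Against a floor of 3 counts per library FT was at least 33.3-fold lower in N14. AP1 [AT1G69120], which gives meristems floral identity, had 0, 0 and 0 counts in N14 and 98, 53 and 65 counts in Col-0, or 3.26, 2.22 and 2.62 CPM (adjusted p = 1.4e-08). TSF [AT4G20370], the close relative of FT, was at least 2.36-fold lower, from 14, 13 and 1 counts in Col-0.

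SOC1 [AT2G45660], a MADS-box integrator, had 8.21, 12.1 and 1.46 CPM in N14 and 115.5, 157 and 80.4 CPM in Col-0. The highest N14 pool was below the lowest Col-0 pool, and the difference was -4.04 ± 0.39 (adjusted p = 4.4e-09). FUL [AT5G60910], which acts with AP1, was at 0.881, 1.19 and 0.773 CPM in N14 and 10.7, 11.5 and 10.6 CPM in Col-0 (-3.54 ± 0.26). Among the SPL factors, which promote the adult and flowering phases, SPL4 [AT1G53160] was lower (-1.85 ± 0.29). SPL15 [AT3G57920] had 2, 2 and 2 counts in N14 and 26, 48 and 64 in Col-0, a ratio of 18 in Col-0 over N14 with a counting interval of 8.07 to 50. FD [AT4G35900], the partner of FT in the meristem, differed by -1.77 ± 0.49 and AGL42 [AT5G62165] by -1.81 ± 0.46. AGL24 [AT4G24540], CO [AT5G15840], SPL3 [AT2G33810], SPL5 [AT3G15270] and SPL9 [AT2G42200] were not called, and LFY [AT5G61850] and CAL [AT1G26310] had too few counts to be tested.

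**Figure D1:**
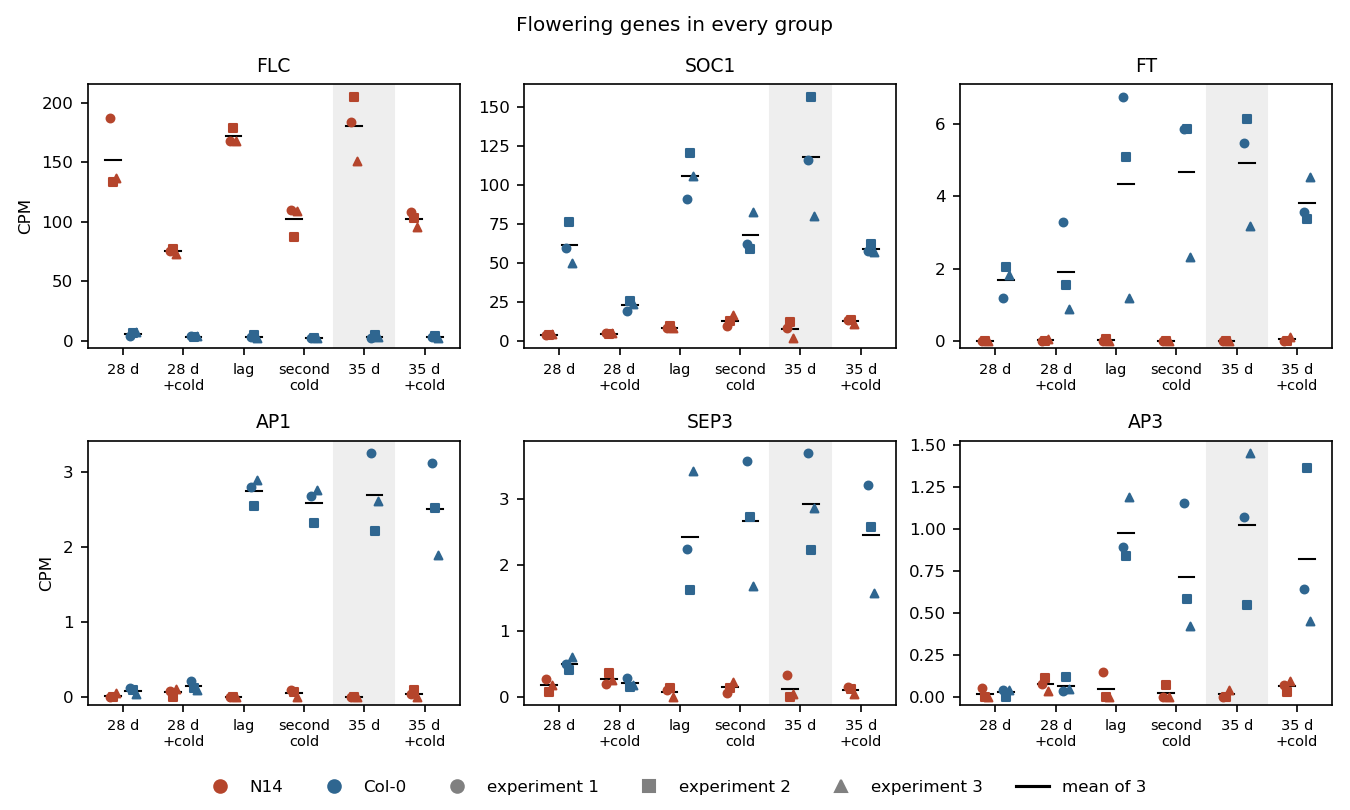
CPM (linear axis) of 6 flowering genes in the 12 groups, with N14 in red left of Col-0 in blue at each condition, 1 marker shape per experiment and a black line at the mean of 3 pools; the 35-day untreated plants are shaded. FLC lies higher in N14 and SOC1 and FT higher in Col-0 in all 6 conditions, and AP1 and SEP3 are above 1 CPM in Col-0 in 4 of them, the 35-day plants included, and below 1 CPM in N14 in all 6.

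All 6 floral organ markers were lower in N14, beside 6.41% of all genes, with a median of -3.9. They are the MADS-box genes AP3 [AT3G54340], PI [AT5G20240], AG [AT4G18960], SEP1 [AT5G15800], SEP2 [AT3G02310] and SEP3 [AT1G24260] that specify petals, stamens, carpels and sepals. Their summed level was 1.48, 1.07 and 0.988 CPM in N14 and 11.1, 6.82 and 12.2 CPM in Col-0, without overlap. SEP3 had 0.325, 0 and 0.043 CPM in N14 and 3.69, 2.22 and 2.86 CPM in Col-0 (-4.46 ± 0.59). AP3 had 1 count in all N14 pools together, and its ratio of Col-0 over N14 was 63.5 with a counting interval of 11.1 to 2540. PI differed by -3.43 ± 0.77, AG by -2.28 ± 0.45 and SEP1 by -1.74 ± 0.44, and SEP2 had 1, 1 and 0 counts in N14 and 26, 15 and 36 in Col-0. Without the N14 pool of experiment 1 the PI difference was -5.17. At 35 days the floral markers and most of the integrators were lower in N14. The part of floral tissue in the integrators' difference was not tested.

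At 28 days, in separate untreated plants, none of the 6 organ markers was called, against 12.3% of all genes called at that age. The labels give 15 rosettes for the 28-day groups and 4 for the 35-day groups, so age and rosette number cannot be told apart. Their summed level was then 0.797, 1.24 and 0.874 CPM in N14 and 1.5, 1.06 and 1.55 CPM in Col-0, which overlapped. FLC was already higher in N14 at 28 days (4.77 ± 0.28), at 187, 133 and 137 CPM in N14 against 3.58, 5.98 and 7.15 CPM in Col-0. SOC1 differed by -4.04 at that age too. Of the 14 integrators and meristem identity genes tested, 6 were called lower in N14 at 28 days and 0 higher. The test of whether the difference changed between the ages was not passed by any organ marker, with changes of -5.64 to -1.56 and adjusted p from 0.87 to 1, nor by AP1 (-6.95 ± 2.38, adjusted p = 1) or FLC (0.99 ± 0.35, adjusted p = 1).

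**Figure D2:**
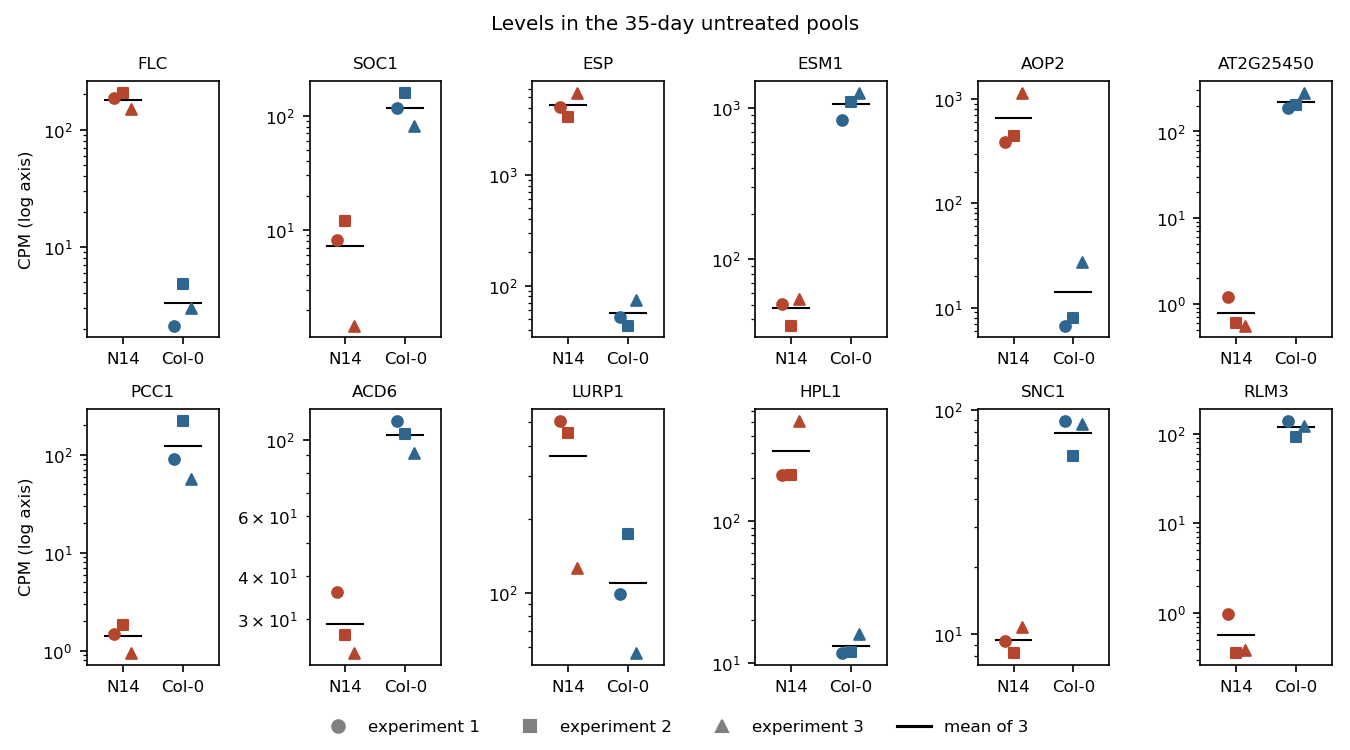
CPM on a log axis of 12 genes in the 35-day untreated pools, N14 in red left of Col-0 in blue, 1 marker shape per experiment and a black line at the mean of 3. The accessions do not overlap in 11 of the panels and overlap for LURP1, where the N14 pool of experiment 3 is at 126.5 CPM and the Col-0 pool of experiment 2 at 174 CPM. Among all genes tested 21.3% did not overlap.

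Among the specifier genes of glucosinolate breakdown, ESP and NSP1 were called, in opposite directions, and NSP3, NSP4 and NSP5 were not, with differences of 1.25, 0.36 and 0.07. ESP [AT1G54040], which directs breakdown towards nitriles and epithionitriles, had 4097, 3338 and 5460 CPM in N14 and 52.2, 43.6 and 73.7 CPM in Col-0. ESM1 [AT3G14210], a modifier that favours isothiocyanates over nitriles, ran the other way, at 50.6, 36.4 and 55.0 CPM in N14 and 838, 1108 and 1263 CPM in Col-0. Neither gene's pools overlapped between accessions, and both were called in all 6 other tables. The myrosinase gene TGG2 [AT5G25980] had 470, 248.5 and 379.5 CPM in N14 and 1233, 583 and 1146 CPM in Col-0 (-1.43 ± 0.30, adjusted p = 0.00097). The other main myrosinase gene, TGG1 [AT5G26000], was not called (-0.26 ± 0.18, adjusted p = 0.42). The nitrile specifier NSP1 [AT3G16400] was lower (-1.36 ± 0.33), as was MVP1 [AT1G54030], a lipase-like protein that associates with myrosinase (-0.84 ± 0.14). NSP1 was not called without the Col-0 pool of experiment 1 (-0.84, adjusted p = 0.088). Of 11 genes of breakdown tested, 1 was higher and 4 lower, which is 45.5% called beside 14.0% of all genes, with a median of -0.26.

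Side-chain enzymes differed in both directions, with 2 higher and 2 lower of 8 tested, beside 7.60% and 6.41% of all genes, and a median of 0.63. AOP2 [AT4G03060], which turns methylsulphinyl into alkenyl glucosinolates and is known to be non-functional in Col-0, had 388.5, 440.1 and 1140 CPM in N14 and 6.72, 7.90 and 27.5 CPM in Col-0 (5.55 ± 0.55, adjusted p = 7.7e-09). AT2G25450, annotated as a 2-oxoglutarate and Fe(II)-dependent oxygenase, had 1.21, 0.593 and 0.558 CPM in N14 and 186, 204 and 279 CPM in Col-0 (-8.13 ± 0.40). For both genes all pools of 1 accession lay above all pools of the other. FMOGS-OX2 [AT1G62540], an S-oxygenase of the side chain, was lower in N14 (-2.93 ± 0.59) and FMOGS-OX4 [AT1G62570] higher (0.98 ± 0.29). FMOGS-OX4 was not called without the N14 pool of experiment 1 (0.86) or the Col-0 pool of experiment 1 (0.79).

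In the synthesis of aliphatic glucosinolates, those made from methionine, 3 of 16 genes were higher in N14 and none was lower, which is 18.8% called beside 14.0% of all genes. The median was 0.84, beside 0.06 over all genes, and all 16 differences were positive, from 0.28 to 3.09. Their summed level was 1109, 1401 and 3589 CPM in N14 and 624.9, 679.2 and 1692 CPM in Col-0. These sums overlapped between accessions, and N14 was above Col-0 within each experiment. MAM3 [AT5G23020], a chain-elongation synthase, had 16.2, 19.4 and 33.8 CPM in N14 and 1.86, 1.76 and 4.56 CPM in Col-0 (3.09 ± 0.43). BCAT4 [AT3G19710], which starts chain elongation, was higher by 1.57 ± 0.40 and the isomerase subunit IPMI1 [AT3G58990] by 1.6 ± 0.54. Neither was called without the N14 pool of experiment 3, at 1.06 for BCAT4 and 0.80 for IPMI1, and IPMI1 was not called without the Col-0 pool of experiment 1 (1.25) or 2 (1.42). Of 13 genes of indole glucosinolate synthesis, 15.4% were called, beside 14.0% of all genes. IGMT2 [AT1G21120], an O-methyltransferase, was higher (107, 56.9 and 24.9 CPM in N14 against 6.92, 3.64 and 3.63 CPM in Col-0) and CYP81F1 [AT4G37430], a cytochrome P450 that modifies the indole ring, was lower (-1.06 ± 0.29). CYP81F1 was called in 1 of the other 6 tables, and not without the N14 pool of experiment 2 (-0.89) or the Col-0 pool of experiment 1 (-0.92) or 3 (-0.83). Both genes have close copies.

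**Figure D3:**
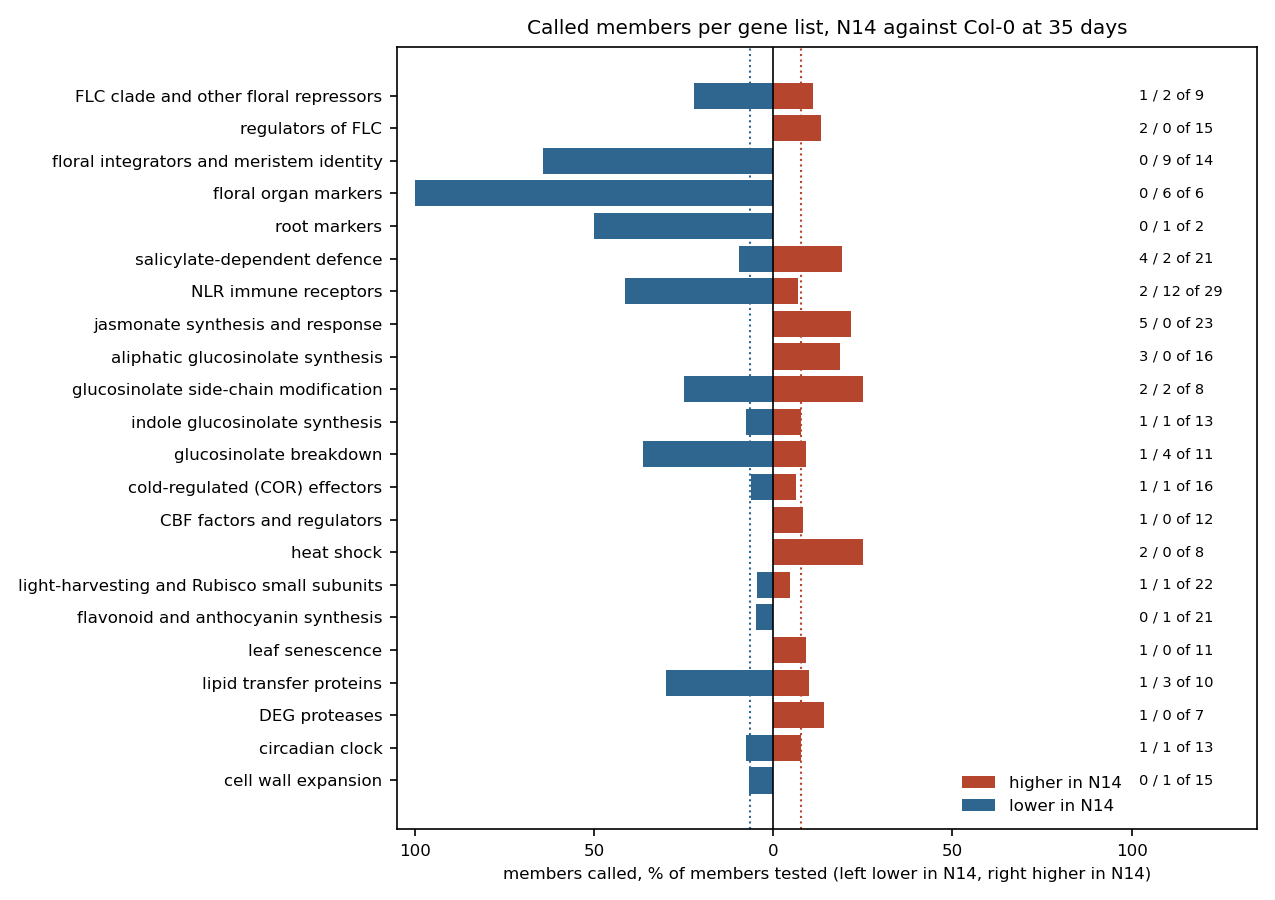
Called members of the 22 gene lists as a percentage of the members tested (x axis), red to the right for higher in N14 and blue to the left for lower in N14, with the higher / lower counts at the right edge; dotted lines mark the shares of all genes called, 7.60% higher and 6.41% lower. All 6 floral organ markers and 9 of 14 integrators lie to the left, and 12 of 29 NLR genes.

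Of 29 NLR genes tested, 12 were lower in N14 and 2 higher, beside 6.41% and 7.60% of all genes, with a median of -0.31. RLM3 [AT4G16990], a TIR-NBS gene for resistance to blackleg and other fungi, had 0.974, 0.356 and 0.387 CPM in N14 and 139, 92.4 and 122 CPM in Col-0 (-7.66 ± 0.37). SNC1 [AT4G16890], a TIR-type receptor in the same gene cluster, had 9.37, 8.24 and 10.8 CPM in N14 and 89.4, 62.1 and 86.3 CPM in Col-0 (-3.06 ± 0.17), and its neighbour RPP4 [AT4G16860], for downy mildew resistance, was lower (-2.32 ± 0.19). These levels were separate in every pool, but the genes of this cluster are near copies of each other and their reads may be divided differently by different tools. In the other 6 tables SNC1 ranged from -3.74 to -2.32 and RPP4 from -2.62 to -1.09.

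CSA1 [AT5G17880], a TIR-type receptor that shapes shade responses and resistance, had 3, 3 and 1 counts in N14 and 417, 150 and 292 in Col-0, a ratio of 96.2 in Col-0 over N14 with a counting interval of 46.5 to 240. In the other tables its log2 difference was -7.19 to -3.96. WRR4 [AT1G56510], for white rust resistance, was lower (-4.79 ± 0.47), as were LAZ5 [AT5G44870] (-2.69 ± 0.25) and AT1G58602, an NB-ARC gene (-2.33 ± 0.21). In the other tables WRR4 ranged from -5.1 to -3.18, LAZ5 from -5.18 to -1.18 and AT1G58602 from -2.96 to -1.52, all called. ADR1 [AT1G33560], a helper that other receptors signal through, was lower (-4.12 ± 0.60), at 0.927, 0.0593 and 0 CPM in N14 and 6.16, 3.76 and 7.86 CPM in Col-0. Without the N14 pool of experiment 1, which held most of the ADR1 reads, the difference was -7.62. LOV1 [AT1G10920] (0.61 ± 0.18) and AT4G12010 (0.96 ± 0.22) were the 2 higher in N14. Among all 118 genes annotated as disease resistance proteins, a family chosen after the values were seen, 59 were called, 16 higher and 43 lower, which is 50% beside 14.0% of all genes. The reads of both accessions were assigned to the TAIR10 build, which is of Col-0, and the part of sequence difference in these counts was not tested. Of the 14 NLR calls, 10 held in every other table that tested the gene.

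Salicylate genes, which act against biotrophic pathogens, moved apart from each other. PCC1 [AT3G22231], a small protein under pathogen and circadian control, had 1.48, 1.84 and 0.945 CPM in N14 and 90.6, 222 and 56.7 CPM in Col-0 (-6.45 ± 0.58), and ranged from -6.74 to -1.87 in the other tables. ACD6 [AT4G14400], an ankyrin membrane protein that promotes salicylate signalling and cell death, had 36.1, 26.9 and 23.8 CPM in N14 and 114, 104 and 91.5 CPM in Col-0 (-1.83 ± 0.31). It ranged from -4.16 to -0.70 in the other tables and was not called in the CLC table.

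LURP1 [AT2G14560], which is needed for basal defence, was higher in N14, at 506, 453 and 126.5 CPM in N14 and 99.0, 174 and 56.5 CPM in Col-0 (1.72 ± 0.45, adjusted p = 0.0079). Its pools overlapped between accessions, and it was not called without the N14 pool of experiment 1 (1.4, adjusted p = 0.054) or the Col-0 pool of experiment 3 (1.41, adjusted p = 0.052). ICS1 [AT1G74710], which makes the precursor of salicylate, was higher by 0.59 ± 0.20 (adjusted p = 0.042) and EDS5 [AT4G39030], which exports it from the plastid, by 0.73 ± 0.24 (adjusted p = 0.038). ICS1 was called in 5 of the other 6 tables and EDS5 in 3, with EDS5 at 0.595 to 1.3. Without the N14 pool of experiment 1, only 1 gene of this list was called higher, so ICS1 and EDS5 did not both stay called. PAD4 [AT3G52430], a partner of EDS1, differed by 0.83 ± 0.24, but lay between -0.27 and -0.03 in 5 of the other 6 tables. It was not called without the N14 pool of experiment 1 (0.67) or 2 (0.71) or the Col-0 pool of experiment 3 (0.74). PR1 [AT2G14610], the usual marker of salicylate response, was not called (1.29 ± 1.16, adjusted p = 0.56), with 23.7, 51.1 and 7.82 CPM in N14 and 3.13, 29.3 and 1.49 CPM in Col-0. Of 21 genes, 4 were higher and 2 lower, which is 28.6% called beside 14.0% of all genes, with a median of 0.30. Of these 6 calls, 2 held in every other table that tested the gene.

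Among 23 jasmonate and oxylipin genes, 5 were higher in N14 and none was lower, beside 7.60% and 6.41% of all genes, with a median of 0.27. HPL1 [AT4G15440], the hydroperoxide lyase that makes green leaf aldehydes from the same precursors as jasmonate, had 210, 212 and 508 CPM in N14 and 11.7, 12.04 and 16.1 CPM in Col-0 (4.54 ± 0.36, adjusted p = 8.8e-11). The cyclase genes AOC1 [AT3G25760] (1.33 ± 0.30) and AOC2 [AT3G25770] (1.45 ± 0.27) were higher, as was JAR1 [AT2G46370], which joins jasmonate to isoleucine (0.55 ± 0.16). AOC1 and AOC2 are near copies of each other. PDF1.2A [AT5G44420], a defensin, had 409, 404 and 229 CPM in N14 and 119.9, 134 and 61.6 CPM in Col-0 (1.72 ± 0.55, adjusted p = 0.033), and was not called without any pool other than the N14 pool of experiment 3, at 1.45 to 1.94. VSP2 [AT5G24770], a storage protein induced by jasmonate, was not called (-0.73 ± 0.61), and neither was LOX2 [AT3G45140], at 1.42 ± 0.53 and an adjusted p of 0.074. With the experiment as a block the adjusted p of LOX2 was 0.024.

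Of 16 cold effectors, KIN1 [AT5G15960] was higher and COR27 [AT5G42900] lower, or 12.5% beside 14.0% of all genes, with a median of 0.24. COR15A [AT2G42540], a chloroplast protein that protects membranes in freezing, had 305, 599 and 421 CPM in N14 and 146, 381 and 184 CPM in Col-0, which overlapped, and its difference of 0.90 ± 0.38 had an adjusted p of 0.12. Without the Col-0 pool of experiment 2 COR15A was called (1.42, adjusted p = 0.022). KIN1 differed by 2.01 ± 0.41, but by -0.21 in the kallisto table and -1.07 in the Salmon table. In the Salmon table it was called lower by the same edgeR test (adjusted p = 0.014), and 3 of the other 6 tables called it higher. Its near copy KIN2 [AT5G15970] differed by -0.76 ± 0.41 without a call. COR27, a cold gene under clock control, had 2.69, 1.42 and 0.472 CPM in N14 and 24.2, 11.9 and 1.17 CPM in Col-0 (-3.03 ± 0.76), and was not called without the Col-0 pool of experiment 1 (-2.1, adjusted p = 0.078). The cold factors CBF1 [AT4G25490] (1.02 ± 0.72), CBF2 [AT4G25470] (0.03 ± 0.52) and CBF3 [AT4G25480] (0.52 ± 0.58) were not called, and their pools overlapped between accessions. Of 12 factors and regulators of that kind, MYB15 [AT3G23250] was the 1 called, or 8.33% beside 14.0% of all genes. MYB15 is described further on with the pool that it rests on.

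In the circadian clock, 1 of 13 genes was higher and 1 lower, which is 15.4% called beside 14.0% of all genes. LHY [AT1G01060], a morning factor, had 12.5, 11.3 and 15.6 CPM in N14 and 3.36, 5.77 and 6.86 CPM in Col-0 (1.31 ± 0.27), and its partner CCA1 [AT2G46830] differed by 0.00 ± 0.43. ELF4 [AT2G40080], of the evening complex, was lower in N14 (-1.51 ± 0.47). Its pools overlapped, and it was not called without the N14 pool of experiment 2 (-1.53) or 3 (-1.21) or the Col-0 pool of experiment 1 (-1.33) or 2 (-1.15). Among 22 light-harvesting and Rubisco genes LHCB2.2 [AT2G05070] was higher (0.91 ± 0.21) and its near copy LHCB2.1 [AT2G05100] lower (-0.75 ± 0.20). That is 9.09% called beside 14.0% of all genes, with a median of 0.12. LHCB2.1 was not called without the N14 pool of experiment 1 (-0.70) or 3 (-0.68) or the Col-0 pool of experiment 2 (-0.59), and was at -1.51 to -0.53 in the other tables. Of 21 flavonoid genes, PAP1 [AT1G56650], a regulator of anthocyanin, was the 1 called, or 4.76% beside 14.0% of all genes, and it was lower (-3.39 ± 1.01). The entry enzyme CHS [AT5G13930] was not called (0.28 ± 0.41). The PAP1 level in Col-0 was 0.333, 0.460 and 5.48 CPM, high in experiment 3 alone, and without that Col-0 pool the difference was -1.0 (adjusted p = 0.59). PAP1 was also not called without the N14 pool of experiment 1 (-2.91) or 2 (-3.35).

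In smaller lists, LTP3 [AT5G59320], a lipid transfer protein, was higher (2.17 ± 0.67) and LTP5 [AT3G51600] (-1.26 ± 0.28), LTP6 [AT3G08770] (-1.69 ± 0.26) and AT4G12490 (-2.08 ± 0.55) were lower, out of 10. That is 40% called beside 14.0% of all genes. LTP3 was not called without the N14 pool of experiment 3 (1.52) or the Col-0 pool of experiment 1 (1.86) or 2 (2.17), and AT4G12490 not without the N14 pool of experiment 3 (-1.77) or the Col-0 pool of experiment 2 (-1.33). DEG8 [AT5G39830], a protease of the thylakoid lumen, had 104, 115 and 113 CPM in N14 and 72.2, 75.0 and 74.4 CPM in Col-0 (0.58 ± 0.09, adjusted p = 1.8e-05). It was the only call among 7 DEG genes of the list, or 14.3% beside 14.0% of all genes. DEG14 [AT5G27660], a related protease outside the list and chosen after its values were seen, had 4.68, 2.43 and 4.42 CPM in N14 and 73.8, 110.1 and 103 CPM in Col-0 (-4.62 ± 0.24). Of 15 cell wall genes, the expansin EXPA6 [AT2G28950] was the 1 called, or 6.67% beside 14.0% of all genes, and it was lower (-0.52 ± 0.17). Its call was lost without any pool other than the N14 pool of experiment 2 and the Col-0 pool of experiment 3, at -0.53 to -0.39. EXPA6 was called in 3 of the other 6 tables, and AT4G12490 in 4, at -2.8 to -1.19.

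Genes without overlap between accessions and whose log2 CPM averaged 3 or more over the 36 libraries were also ranked. The largest rises in N14 among these included AT1G03106 (9.53), AT4G32230 (8.57), AT2G15555, a non-coding RNA (8.02), and AT2G36540, a hydrolase of the haloacid dehalogenase type (7.98). AT2G36540 had 295, 484 and 437 CPM in N14 and 1.80, 1.46 and 1.53 CPM in Col-0. The largest falls among the same genes were AT1G66100, a thionin (-9.48), AT1G76960 (-9.43), MRU1 [AT5G35490] (-8.54), AT2G25450 and AT5G35480 (-8.12). AT1G66100, one of the small antimicrobial peptides, had 0.464, 0.178 and 0.215 CPM in N14 and 252, 158 and 222 CPM in Col-0. That the accessions were separate in every pool for these genes was a condition of the ranking.

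Some genes were near 0 in 1 accession, with at most 3 counts in each of its pools and at least 100 in each pool of the other. There were 34 in N14 and 6 in Col-0. In the other tables the numbers were 26 to 50 in N14 and 7 to 12 in Col-0, and 7 and 2 genes met the rule in all 7 tables. MRU1 met it in all 7, with 1, 1 and 2 counts in N14 and 475, 716 and 806 in Col-0. The lncRNA AT2G09795, with 0, 0 and 0 counts in N14 and 478, 541 and 435 in Col-0, was at least 126-fold lower and met the rule in 3 tables. AT2G16490, near 0 in Col-0 with 640, 572 and 439 counts in N14 and 2, 3 and 2 in Col-0, met it in 6. Of the 34 genes, 13 also had at most 3 counts in each of the other 15 N14 libraries. Of the 160 tested genes annotated as pseudogenes, 63.7% were called, and of 59 photosystem genes 6.78%, beside 14.0% of all genes tested, families that were chosen after the values were seen. Whether such genes are absent from N14 or were only missed by its reads was not tested.

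Of 11897 genes whose log2 CPM averaged 3 or more, 33 in the N14 pool of experiment 1 were at least 4-fold above both other N14 pools and 0 were as far below. In the N14 pool of experiment 3, 19 were above and 65 below, and in the Col-0 pool of experiment 3, 9 were above and 44 below. The other pools had 0 to 2 above and 2 to 8 below. The genes that follow were high in the N14 pool of experiment 1. ICL [AT3G21720], the isocitrate lyase of the glyoxylate cycle, had 904, 3 and 0 counts in N14 and 4, 0 and 0 counts in Col-0. UBQ13 [AT1G65350] had 721, 10 and 1 counts in N14 and 2, 8 and 0 in Col-0. In both the high value was that of experiment 1, and without it the differences were 0.59 for ICL and 1.15 for UBQ13, neither called. UBQ13 was also not called without the Col-0 pool of experiment 1 (6.06, adjusted p = 0.059). MYB15, a stress factor, had 13.4, 0.415 and 0.215 CPM in N14 and 0.899, 0.753 and 0.524 CPM in Col-0, and its call of 2.69 ± 0.87 became -1.24 without that pool. WRKY6 [AT1G62300], a factor of senescence and stress, had 40.1, 6.10 and 5.37 CPM in N14 and 8.99, 4.98 and 5.28 CPM in Col-0, and its 1.42 ± 0.45 became -0.17. Neither was called without the Col-0 pool of experiment 2 (2.71 for MYB15, 1.26 for WRKY6) or 3 (2.5 and 1.29), nor MYB15 without that of experiment 1 (2.87). WRKY6 was called in 4 of the other 6 tables and MYB15 in 1. Of 11 leaf senescence genes WRKY6 was the 1 called, which is 9.09% beside 14.0% of all genes, with a median of 0.09.

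Heat shock genes were high in the same pool. Their summed level over 8 genes was 151, 19.6 and 62.0 CPM in N14 and 16.1, 12.96 and 49.3 CPM in Col-0. HSP70 [AT3G12580], a chaperone, had 99.8, 6.76 and 38.0 CPM in N14 and 4.39, 3.35 and 20.3 CPM in Col-0 (2.37 ± 0.73, adjusted p = 0.028), and HSP17.6II [AT5G12020] was higher by 3.03 ± 0.79. Without the N14 pool of experiment 1 neither was called, at 1.27 for HSP70 and 0.83 for HSP17.6II, and HSP70 was not called without the Col-0 pool of experiment 1 (2.02) or 2 (1.97). Without the Col-0 pool of experiment 3 the HSP70 difference was 3.63. Of the root markers, PYK10 [AT3G09260], a beta-glucosidase of root endoplasmic reticulum bodies, had 85.1, 16.3 and 19.2 CPM in N14 and 27.2, 15.5 and 12.7 CPM in Col-0 and was not called (1.12 ± 0.62). NRT2.1 [AT1G08090], a nitrate transporter of roots, was lower in N14 (-1.27 ± 0.41), at 0.649 to 0.711 CPM in the N14 pools and a highest value of 1.90 CPM in Col-0. It was not high in the N14 pool of experiment 1, and its call was lost without any pool other than the Col-0 pool of experiment 2, at -1.3 to -1.15. The iron transporter IRT1 [AT4G19690] had 109, 5 and 2 counts in N14 and 2, 0 and 5 in Col-0, and the root hair gene EXPA7 [AT1G12560] had 13, 0 and 0 in N14 and 0, 0 and 0 in Col-0. RHD2 [AT5G51060] had 6, 2 and 0 counts in N14 and COBL9 [AT5G49270] had 8, 0 and 0, with 0 in every Col-0 pool. These 4 of the 6 root markers had too few counts to be tested. The part of root tissue or of heat in the calls that rest on this pool was not tested.

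Of 134 calls in which the N14 pool of experiment 1 was at least 4-fold above both other N14 pools, 114 were higher in N14 and 23 remained called without it. Among all calls, 47 changed sign without that pool, against 0 or 1 without any other. Without it 2088 of 2837 stayed called in the same direction, and without another pool 2069 to 2310 did. In 19 genes the other 17 N14 libraries had at most 3 counts each and the Col-0 35-day pools at least 100. Over these genes the N14 pool of experiment 1 held 47 counts, or 1.41% of the Col-0 mean level. The pools of experiments 2 and 3 held 7 and 9, and the other 17 libraries 5 to 27, which the selection keeps low. The source of these reads was not tested.

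**Figure D4:**
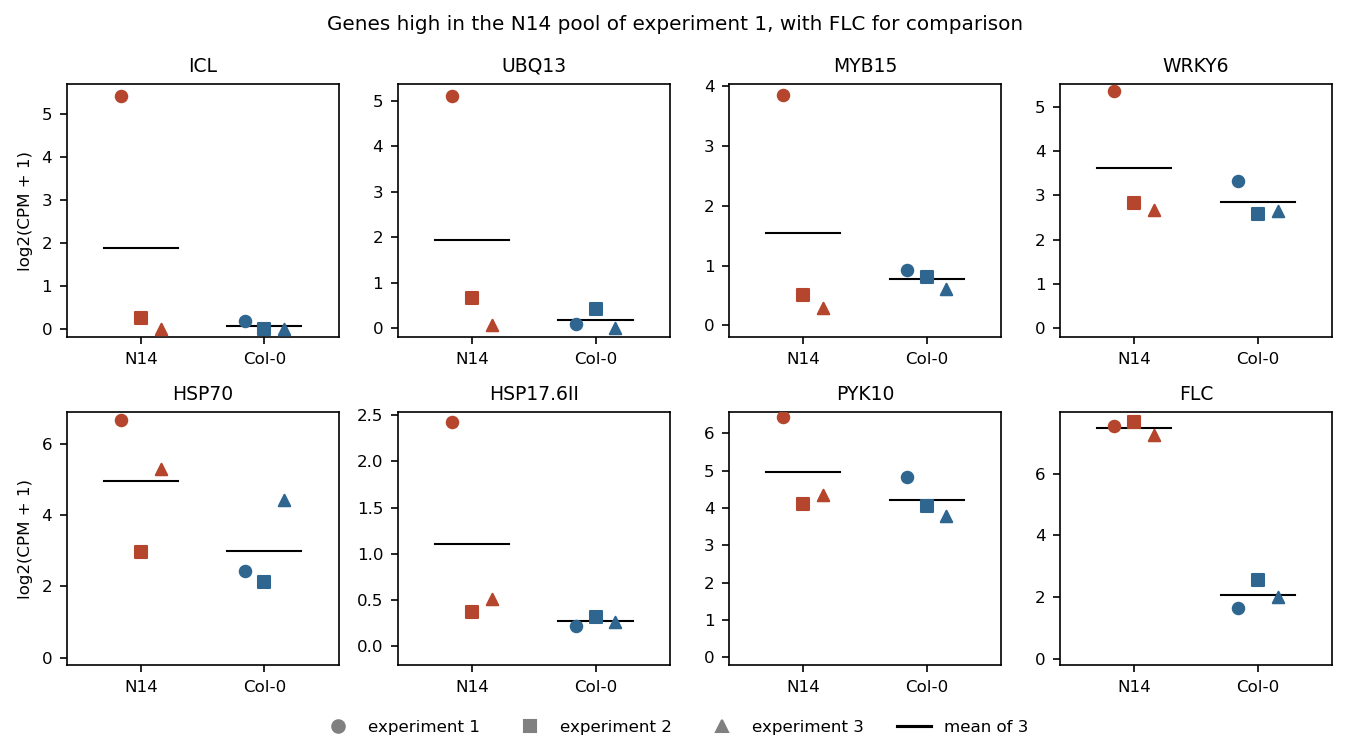
Levels as log2(CPM + 1) of 8 genes in the 35-day pools, N14 in red left of Col-0 in blue, 1 marker shape per experiment and a black line at the mean of 3 log values. In 7 genes the N14 pool of experiment 1 (circle) is the highest of the 6 pools, while in FLC the 3 N14 pools lie together.

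The 35-day difference was set beside the same comparison in the other conditions, which share no library with it. Of the 2837 calls, 1704 were also called in the same direction at 28 days and none in the opposite one, which is 60.1% of the 35-day calls and 68.1% of the 28-day calls. Across genes the differences at 35 and 28 days had a Pearson r of 0.81 over all 20263 genes and 0.88 over the 35-day calls, a description over genes that share libraries and depth. After 7 days of recovery from cold 15.7% of genes were called between accessions, and 2059 of the 35-day calls were among them in the same direction. After first cold at 28 days (11.1% called), after first cold at 35 days (14.1%) and after second cold (14.0%), 1327, 1571 and 1616 of the 35-day calls kept their direction and 13, 9 and 12 were called in the opposite one. In all 5 other conditions 1005 calls recurred, 433 higher and 572 lower, among them FLC, ESP, ESM1, AOP2, SNC1 and RLM3. No other condition shared 440 calls, 345 higher and 95 lower, but a missing call is no test of a change.

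**Figure D5:**
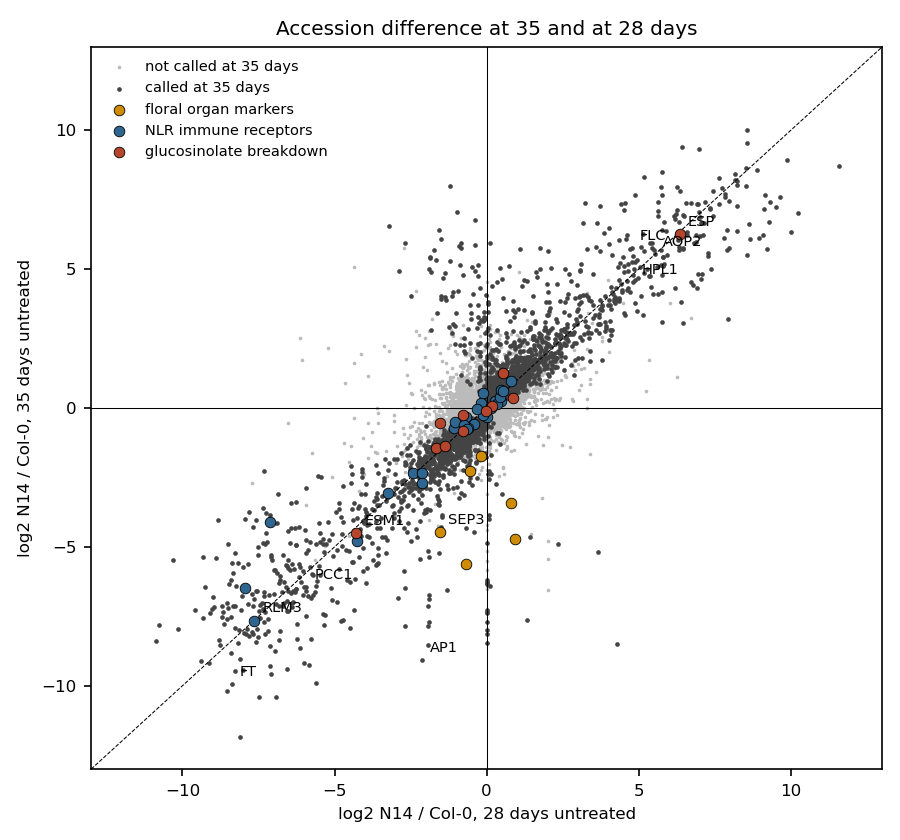
Log2 fold change N14 over Col-0 at 35 days (y axis) against that at 28 days (x axis), 1 point per gene tested, with dark points called at 35 days and a dashed line of equal values. NLR genes (blue) and glucosinolate breakdown genes (red) lie mostly along the line, and the 6 floral organ markers (ochre) lie below it, at -1.53 to 0.93 at 28 days.

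The change of the accession difference with age was tested directly, and 0 genes passed in edgeR's quasi-likelihood test (0% of 20263). The ages also differ in the labelled rosettes, 15 at 28 days and 4 at 35 days. At an unadjusted p under 0.05 there were 843 genes, or 4.16%, and DESeq2 called 9. Among the genes named for the size of this estimate, ACOS5 [AT1G62940], an acyl-CoA synthetase needed for the pollen wall, had 0, 1 and 0 counts in N14 and 19, 23 and 18 in Col-0 at 35 days, a ratio of 47 in Col-0 over N14 with a counting interval of 8.12 to 1890. Its change with age had an adjusted p of 0.73. With the experiment as a block 3 genes passed, all lower in N14 at 35 days relative to 28 days. They were AT2G20870, a cell wall protein precursor, at 0.680 CPM in N14 and 28.1 CPM in Col-0 at 35 days against 0.547 CPM in N14 and 2.08 CPM in Col-0 at 28 days, AT3G28500 and AT1G15260, all chosen after their values were seen.

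The difference at 35 days was also tested against that after first cold at 35 days, and 54 genes passed (0.266%), 42 with a positive change and 12 with a negative one. At an unadjusted p under 0.05 there were 1670, and DESeq2 called 161. HPL1 averaged 310 CPM in N14 and 13.3 CPM in Col-0 in untreated plants, against 9.39 CPM in N14 and 5.29 CPM in Col-0 after cold, and its difference was 3.72 ± 0.47 larger untreated (adjusted p = 0.00014). ACD6 averaged 28.9 CPM in N14 and 103 CPM in Col-0 untreated, against 10.0 CPM in N14 and 196.5 CPM in Col-0 after cold. DEG14 differed by -4.62 untreated and by -0.33 after cold (change -4.29 ± 0.30, adjusted p = 4.5e-10). FLC was 5.09 ± 0.28 higher in N14 after cold, and its change did not pass (0.68 ± 0.35, adjusted p = 0.66).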

How the data were processed

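RNA-seq libraries of rosettes had been made with polyA enrichment and a directional kit, per the labels' protocols. Reads were assigned to TAIR10 and counted by the authors, and the submitters' processing notes name kallisto 0.42.5, STAR 2.5.2a, HTSeq 0.7.2, Salmon 0.6.0, BWA 0.7.13, SAMtools 1.3, RSEM 1.2.30 and TopHat2 2.1.1. The sources used here do not say whether counting used the strand. Raw counts in whole numbers were deposited by the authors for CLC, BWA, TopHat and STAR. The kallisto, RSEM and Salmon tables hold expected counts as deposited by the authors, which were rounded to whole numbers.

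STAR counts of all 36 libraries were fitted in edgeR 4.0.16 (R 4.3.3): filterByExpr by group, TMM scaling, a mean for each of the 12 groups, and the quasi-likelihood F test with Benjamini-Hochberg adjustment over the 20263 of 33602 genes tested. Calls are genes with an adjusted p below 0.05. SE is the change over the square root of F. Levels are CPM with TMM scaling, and ratios for genes of at most 3 counts carry exact 95% intervals, which cover counting error only. DESeq2 1.42.0 was an alternative test. Tested on simulated data, the fit recovered 46.2% of 91 genes changed by 1 log2 unit and 86.1% of 108 changed by 2, with 6 false calls (4.26%). The simulated counts held no effect of experiment and no pool that stood apart, so these shares need not hold for the real calls.

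The groups, gene lists and their members were chosen with earlier results of these data known, so counts over lists are descriptions. Named genes were FLC, PR1, VSP2, COR15A, CBF1 to CBF3, CHS and HSP70, up to 4 called members of each list with the largest change, the 10 largest rises and falls among calls without overlap whose log2 CPM averaged 3 or more, the 5 highest genes near 0 in each accession, and the 5 largest changes with age in each direction. Members named beyond that were chosen after their values were seen. The labels number 3 independent experiments, and pools of the same number deviated together from their group means (correlations of 0.35, 0.43 and 0.65), so the experiment pairs the pools. The main fit had no term for the experiment, so its SE and p-values do not use this pairing. Fits with the experiment as a block were run as alternatives. Gene names came from the TAIR10.1 annotation, which held 32835 of the 33602 identifiers counted. No coordinates are given because it is not the build of the tables. No 2 pools of a group agreed within sampling noise.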

Additional observations from a re-analysis of the deposited data

Results flagged for a closer look

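In 3 genes of the lists the accession difference in untreated plants at 35 days differed from that after first cold at 35 days by a test of the difference itself (edgeR's quasi-likelihood F test, p adjusted over all genes). For HPL1 the change was 3.72 ± 0.47 (adjusted p = 0.00014), and it lay between 3.71 and 3.73 in the other 6 tables. For ACD6 it was 2.46 ± 0.44 (adjusted p = 0.0068), and between 2.1 and 2.45 in the other tables, all called. For KIN1 it was 3.11 ± 0.57 (adjusted p = 0.0088), but it was not called in the TopHat (2.37), CLC (1.95), kallisto (1.39) and Salmon (0.87) tables. These other tables were chosen as a check of this test after the data were seen.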

How the results depend on the processing

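Calls at 35 days numbered 2256 to 2961 when 1 library was left out, 2796 with DESeq2 size factors, 3066 with DESeq2's own test, 2613 with no filter and 2703 to 2892 in the other tables. A filter at 5 CPM gave 1672 calls, 854 higher and 818 lower, of which 324 and 450 were by at least 2-fold, over fewer genes tested. The 6 libraries alone gave 932 calls, 355 higher and 577 lower, of which 330 and 544 were by at least 2-fold. That fit had fewer libraries behind the spread and no term for the experiment, and the cause of the lower number was not tested. Of these calls 38.1% were higher, against 54.2% in the fit to all 36. With the experiment as a replicate block there were 3030 calls in all 36 libraries and 2810 in the 6 alone (43.9% higher). In all 36 libraries the block gained ADR1-L1, AT5G66910, LOX2, FMOGS-OX1 and LHCB4.3 and lost MYB15 and AT3G19615. No other call among list members and named genes changed in that fit. In the 6 libraries alone, the block called PR1, CBF1 and COR15A among the named genes, which the main fit did not call. It did not call HSP70, MYB15, VRN1, VRN2 and WRKY6, which the main fit called. The test of change with age gave 3 genes with the block, all lower, and 0 to 1 when 1 library was left out. The test against first cold gave 22 to 92 genes then, 16 to 75 with a positive and 6 to 20 with a negative change; it gave 34 genes without the N14 pool of experiment 1, 92 without that of experiment 3 and 22 without the Col-0 pool of experiment 1.

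Direction turned in few of the named genes that were called. Without the N14 pool of experiment 1 MYB15 was at -1.24, WRKY6 at -0.17 and AT3G19615 at -4.72, and the highest values when 1 library was left out were 3.25, 1.85 and 6.52. PAD4 was at -0.27 in the BWA, -0.0331 in the CLC, -0.12 in the kallisto, -0.18 in the RSEM and -0.11 in the Salmon table. KIN1 was at -0.21 in the kallisto and -1.07 in the Salmon table, where it was called lower. The cause was not tested. Over named genes and alternatives, 1622 values kept direction and call, 136 lost the call, 4 gained it, 10 turned and 11 uncalled values changed sign. Leaving out 1 library moved the uncalled genes widely. PR1 lay between 0.48 and 3.55, VSP2 between -1.19 and 0.33 and CHS between -0.39 and 1.11. CBF1 lay between 0.49 and 1.59, CBF2 between -0.53 and 0.52 and CBF3 between -0.15 and 1.18. Genes of a few counts are limited by depth, and pools cannot show the spread between plants.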
